A study of Mus musculus with 6 samples.

Results

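The 38 listed genes of the Hox A, B, C and D clusters were followed in primary mammary epithelial cells that lacked or carried the kinase gene Plk2. They were taken by name, and all 38 had at least 1 probe on the array whose RefSeq transcript matched; 41 such probes were found among the probes of 20145 named genes. The study hybridised RNA of 3 Plk2 -/- samples and 3 wild-type samples to single-colour Agilent arrays, 1 array a sample. Both groups came from female mice of the 129sv/C57Bl6 strain at 8 weeks of age, whose mammary glands had been dissociated into epithelial cells. The labels name no Cre, transgene or treatment in either group, and do not say whether a sample is 1 animal or a pool, so p-values measure the spread between these samples. In bulk RNA, fewer cells of a type and less RNA per cell cannot be told apart.

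Hox genes encode homeodomain transcription factors that give cells their position along the body axis. Genes at the same place in the different clusters are paralogues and share a number, and low numbers are used towards the head and high numbers towards the tail. The proteins bind DNA together with TALE homeodomain partners of the Pbx, Meis and Pknox families, and Polycomb and Trithorax complexes keep each gene off or on in cell lineages. In the mouse mammary gland the group 9 paralogues Hoxa9, Hoxb9 and Hoxd9 are known from mutants to be needed for growth of the gland in pregnancy, and Hoxc8 is known for its part in placing the mammary buds.

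None of the Hox genes passed the test between Plk2 null and wild-type cells. Of the 38 genes, 23 were bright enough to be tested and 0 were called (limma, adjusted p under 0.05), against 0.565% of all 24613 entries. At an unadjusted p under 0.05 there were 4 of 23, which is 17.4%, against 23% of all entries. Of the 4, Hoxb3 and Hoxd9 had positive differences of null minus wild type, and Hoxb8 and Hoxb9 negative ones. Of all 24613 entries, 13.5% had both such a p and a positive difference, and 9.53% such a p and a negative one. The smallest adjusted p of a Hox gene was 0.149, for Hoxb3. Differences had a median of 0.10 over the 23 genes, 14 of them positive and 9 negative, and 0.03 over all entries, both on the log2 scale.

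The arrays held between 51.2% and 54.8% of probes well above background in null samples and between 50.2% and 52.3% in wild-type samples. Plk2 itself had processed signals of 2.44, 1.93 and 1.87 in null samples, against 1169, 1160 and 1472 in wild-type samples. None of the null signals was well above background, so Plk2 passed the filter through its wild-type arrays. With null values raised to each array's lowest level well above background, null cells were lower by at least 151.8-fold. The limma adjusted p of 3.62e-06 belongs to the values before that step. Whether the probe lies within the deleted sequence was not analysed here. Array values correlated across entries at 0.975 to 0.989 within null, 0.960 to 0.980 between the groups and 0.987 to 0.990 within wild type. All 10 luminal and all 12 basal epithelial markers passed the filter. So did 17 of 18 listed fibroblast, 12 of 12 endothelial and 18 of 20 lymphocyte markers. Skeletal muscle and fat markers were present too, with 7 of 9 and 7 of 8 passing the filter, while Ckm and Mylpf of muscle and Lep of fat were below the detection mark throughout. The null samples filled slide row 2 and the wild-type samples slide row 1, and these factors cannot be told apart.

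Hox genes were detected most often in the middle of the clusters. Of several matched probes of a gene, the one well above background on the most arrays was used. A gene was counted as detected on an array when the scanner software marked at least 50% of that probe's spots as well above background. On all 6 arrays this held for 19 of 38 Hox genes, which is 50%, against 66.9% of all named genes, while 8 were detected on some arrays and 11 on none. Among paralogues 9 and 10, 6 of 7 genes were detected on all 6 arrays. Among paralogues 4 to 8 the count was 10 of 15, among paralogues 1 to 3 it was 3 of 7, and among paralogues 11 to 13 it was 0 of 9.

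**Figure D1:**
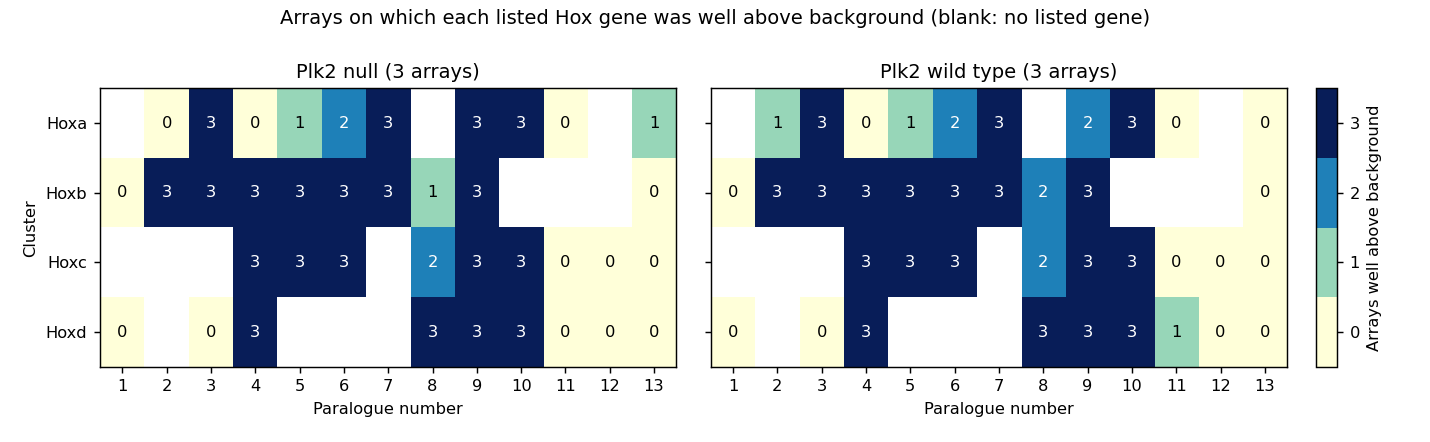
Number of arrays, from 0 to 3, on which each listed Hox gene was well above background in Plk2 null cells (left) and in wild-type cells (right), with clusters as rows and paralogue numbers as columns. Most genes with numbers 4 to 10 show 3 arrays in both panels, and those with numbers 11 to 13 show 0 apart from 1 array each for Hoxa13 and Hoxd11.

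Cluster B had the most such genes, with Hoxb2, Hoxb3, Hoxb4, Hoxb5, Hoxb6, Hoxb7 and Hoxb9 on all 6 arrays, 7 of its 10 genes. In cluster C the genes were Hoxc4, Hoxc5, Hoxc6, Hoxc9 and Hoxc10, and in cluster D Hoxd4, Hoxd8, Hoxd9 and Hoxd10. Cluster A had 3 such genes, Hoxa3, Hoxa7 and Hoxa10, with no 2 of them adjacent. Between 20 and 24 Hox genes were detected on a null array and between 20 and 25 on a wild-type array, and these ranges overlap.

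The 11 genes detected on no array were Hoxa4, Hoxa11, Hoxb1, Hoxb13, Hoxc11, Hoxc12, Hoxc13, Hoxd1, Hoxd3, Hoxd12 and Hoxd13. They include members known for the hindbrain, Hoxb1, for the uterus and forelimb, Hoxa11, for the prostate, Hoxb13, for hair, Hoxc13, and for digits, Hoxd13. A probe below this mark gives only a bound, and an absent transcript was not shown. Hoxa4, for example, had processed signals of 4.45, 5.85 and 3.62 in null samples, against 8.12, 6.08 and 6.32 in wild-type samples. Null values were lower throughout for this dim probe, without an overlap, and no fold is given because both groups were below the mark. Hoxd3 had processed signals of 4.05, 1.98 and 2.08 in null samples, against 2.58, 3.99 and 9.003 in wild-type samples, and these overlapped.

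A few members were detected on single arrays. Hoxa13, a gene of digits and genital tract, had a processed signal of 23.8 in null sample 2 and of 2.30 and 1.96 in null samples 1 and 3, against 2.06 to 2.50 in wild-type samples. Its other probe stayed at 1.82 in null sample 2, so the single bright value was not seen by both probes. Hoxd11 had 5.22, 7.19 and 2.09 in null samples, against 2.43, 2.65 and 18.2 in wild-type samples, and it was detected on 1 wild-type array. Hoxa2, a gene of the branchial arches, was detected on 0 null arrays and 1 wild-type array, with processed signals of 7.61, 4.81 and 5.90 in null samples, against 10.4, 4.72 and 10.3 in wild-type samples. Hoxa5, known for lung development, was detected on 1 array of each group, with 11.1, 5.92 and 10.9 in null samples, against 7.49, 8.58 and 19.0 in wild-type samples. Both genes had overlapping groups.

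In what follows a level is the log2 processed signal minus the array's 75th percentile over gene spots, and levels of different probes cannot be ranked against each other. A difference is the null mean minus the wild-type mean of these levels.

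Paralogues of group 9 had differences in both directions. Hoxd9 had levels of -1.91, -2.23 and -1.69 in null samples, against -2.32, -2.56 and -2.91 in wild-type samples. Every null sample lay above every wild-type sample. The difference was 0.66 (SE 0.22; 95% interval 0.13 to 1.18), a 1.57-fold higher level, and it did not pass (limma, adjusted p = 0.152). Hoxb9 had levels of -2.70, -3.21 and -2.39 in null samples, against -2.47, -1.65 and -1.37 in wild-type samples. Wild-type sample 1 lay within the null range, so these groups overlapped. The difference was -0.94 (SE 0.34; 95% interval -1.75 to -0.13), a level 1.92-fold lower in the null samples that did not pass (limma, adjusted p = 0.172). Hoxa9 had levels of -4.16, -3.74 and -3.89 in null samples, against -4.09, -4.42 and -4.03 in wild-type samples, with an overlap and a difference of 0.25 (SE 0.18; limma adjusted p = 0.449). One of its 2 probes was detected on 3 null and 2 wild-type arrays, the other on none. Hoxc9 gave a difference of 0.04 (SE 0.29; limma adjusted p = 0.939).

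The 250 bases before the annotated start are shown for Hoxd9, Hoxb8 and Hoxd8, the tested genes with the smallest p-values among those with a RefSeq promoter window, because these lines show how the CpG content differs between such promoters (RefSeq, GRCm38.p6, all on the plus strand, capitals mark CG dinucleotides). Hoxd9 lies at chr2:74697513-74697762 with 13 CG dinucleotides, Hoxb8 at chr11:96281655-96281904 with 12 and Hoxd8 at chr2:74704365-74704614 with 6.
Hoxd9: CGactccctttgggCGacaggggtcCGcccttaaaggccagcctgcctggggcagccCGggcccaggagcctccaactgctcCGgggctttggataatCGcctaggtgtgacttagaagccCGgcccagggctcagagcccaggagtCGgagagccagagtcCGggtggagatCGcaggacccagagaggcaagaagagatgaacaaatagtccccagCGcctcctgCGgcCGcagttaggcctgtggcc
Hoxb8: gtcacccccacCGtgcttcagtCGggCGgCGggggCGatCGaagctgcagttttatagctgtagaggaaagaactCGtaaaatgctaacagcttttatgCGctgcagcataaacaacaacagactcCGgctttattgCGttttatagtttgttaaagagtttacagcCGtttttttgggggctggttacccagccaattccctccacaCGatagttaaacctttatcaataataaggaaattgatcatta
Hoxd8: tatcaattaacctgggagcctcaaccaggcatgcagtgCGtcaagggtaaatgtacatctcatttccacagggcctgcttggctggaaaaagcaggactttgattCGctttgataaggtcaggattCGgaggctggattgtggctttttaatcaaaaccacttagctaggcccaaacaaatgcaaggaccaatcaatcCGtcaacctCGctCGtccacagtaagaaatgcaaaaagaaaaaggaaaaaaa
Windows were available for 22 of the 38 genes, 24 windows in all. Cluster B had windows only for Hoxb1, Hoxb4 and Hoxb8, and cluster C only for Hoxc4. All other windows were of clusters A and D, which the values below therefore mainly describe. The 24 windows had a median of 12.5 CG dinucleotides and 58.6% G or C, against 6 and 52.4% over 32851 promoter windows of the same length. Each of the patterns that follow was searched on both strands. CCAAT was in 14 of the 24 Hox windows (58.3%) and in 33.8% of all windows. TATAAA was in 4 Hox windows (16.7%) and in 12.4% of all, and TGATNNAT, the form of the joint Pbx and Hox site, in 4 (16.7%) and in 7.68% of all. Of the windows printed, that of Hoxb8 has matches to TATAAA at 2 places, to TGATNNAT at 1 and to CCAAT at 1. The TATAAA and TGATNNAT matches of Hoxb8 are on the opposite strand, and read TTTATA and ATTGATCA in the line shown. The window of Hoxd8 holds CCAAT at 1 place, and that of Hoxd9 none of them. Such matches describe letters and are not sites shown to be bound.

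In cluster B, Hoxb3 and Hoxb8 had groups that did not overlap. Hoxb3, an anterior gene, had levels of -3.18, -3.20 and -3.16 in null samples, against -3.75, -4.00 and -3.43 in wild-type samples. The null values were nearly equal and all higher. The difference was 0.55 (SE 0.18; 95% interval 0.12 to 0.98; limma adjusted p = 0.149). A second Hoxb3 probe stayed below that mark on every array. Hoxb8, the neighbour of Hoxb9 and known for its part in spinal cord and blood cells, had levels of -5.11, -4.82 and -5.04 in null samples, against -4.42, -4.78 and -4.41 in wild-type samples. Its difference was -0.46 (SE 0.17; 95% interval -0.86 to -0.05; limma adjusted p = 0.181). This probe was well above background on 1 null array and 2 wild-type arrays, and its uncentred signals overlapped, at 8.85, 10.04 and 7.28 in null samples against 12.1, 9.07 and 13.3 in wild-type samples. With Hoxd9, these made 3 of 23 genes without an overlap, which is 13.04%, against 31.5% of all entries. Hoxb4, used by blood stem cells, had levels of 0.09, -0.24 and 0.51 in null samples, against -0.13, -0.08 and -0.12 in wild-type samples, with null values on both sides (difference 0.23, SE 0.21; limma adjusted p = 0.547). Hoxb2, Hoxb5, Hoxb6 and Hoxb7 had differences of 0.10, 0.17, -0.14 and 0.14. The median of the 8 tested genes of the cluster was 0.12.

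With normexp background correction the differences were smaller, at 0.08 for Hoxb3, -0.08 for Hoxb8, 0.27 for Hoxd9 and -0.48 for Hoxb9, and 0 Hox genes were without an overlap, against 29.1% of all entries. The authors' deposited table gives signed folds of 1.099 for Hoxb3 (unadjusted p = 0.219), -1.02 for Hoxb8 (0.594), 1.26 for Hoxd9 (0.0857) and -1.37 for Hoxb9 (0.106). Of the 41 Hox probes, 0 passed in the authors' deposited table at its joint mark of p under 0.01 and fold over 1.4, against 1.46% of all rows. At an unadjusted p under 0.05 there were 2 of 41 Hox probes in the authors' deposited table, against 13.4% of all rows, and they were those of Hoxa4 and Hoxd1, which were not well above background here.

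In cluster D all 4 tested genes had positive differences, with a median of 0.37. Without the filter on dim probes all 9 genes of the cluster entered and the median was -0.19. The 4 tested genes are Hoxd4, Hoxd8, Hoxd9 and Hoxd10, of which Hoxd10 is known for hindlimb and spinal cord. Hoxd8 had levels of -0.62, -0.93 and -0.50 in null samples, against -1.31, -0.79 and -1.21 in wild-type samples. Wild-type sample 2 lay among the null values, and the difference was 0.42 (SE 0.20; 95% interval -0.06 to 0.90; limma adjusted p = 0.270). Hoxd10 had levels of -3.05, -3.31 and -2.69 in null samples, against -3.32, -3.50 and -2.96 in wild-type samples, with an overlap (difference 0.25, SE 0.22; limma adjusted p = 0.540). Hoxd4 had levels of -2.24, -3.63 and -3.08 in null samples, against -3.34, -3.16 and -3.43 in wild-type samples. The null samples held both the highest and the lowest value (difference 0.33, SE 0.34; limma adjusted p = 0.597), and the difference was -0.04 without null sample 1.

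In cluster C the 6 tested genes had a median of -0.15, with 4 negative and 2 positive differences. Hoxc6, a gene of the thoracic region, had levels of 0.33, -0.44 and 0.81 in null samples, against 0.31, 0.47 and 0.32 in wild-type samples. The wild-type values were close together, null sample 1 lay among them, null sample 2 below and null sample 3 above (difference -0.13, SE 0.31; limma adjusted p = 0.819). Hoxc8 had levels of -4.83, -4.91 and -3.57 in null samples, against -4.06, -4.48 and -4.14 in wild-type samples. Null sample 3 was the highest of all 6 and the other two null samples were the lowest (difference -0.21, SE 0.37; limma adjusted p = 0.760). Its probe was well above background on 2 arrays of each group. Hoxc10, a gene of the lumbar region, had levels of -2.95, -3.26 and -2.19 in null samples, against -2.43, -2.59 and -2.63 in wild-type samples, in the same order (difference -0.25, SE 0.28; limma adjusted p = 0.625). Hoxc4 had levels of -2.00, -2.30 and -1.34 in null samples, against -1.80, -1.51 and -1.84 in wild-type samples, again with null sample 3 highest and the other null samples lowest (difference -0.16, SE 0.27; limma adjusted p = 0.738). Hoxc5 and Hoxc9 gave 0.08 and 0.04.

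In cluster A the 5 tested genes had a median of 0.17. Hoxa10, a gene of uterus and lumbar region, had levels of -3.22, -4.19 and -2.27 in null samples, against -3.63, -4.07 and -3.58 in wild-type samples. Its null samples spanned the widest range of any tested Hox gene, and its 95% interval ran from -0.58 to 1.64 (difference 0.53, SE 0.46; limma adjusted p = 0.525). Hoxa7 had levels of -1.10, -1.65 and -0.84 in null samples, against -1.54, -1.14 and -1.42 in wild-type samples (difference 0.17, SE 0.24; limma adjusted p = 0.702). Hoxa3, a gene of the pharyngeal arches, had levels of -2.11, -2.55 and -2.16 in null samples, against -2.40, -2.14 and -1.92 in wild-type samples (difference -0.12, SE 0.20; limma adjusted p = 0.730). Both genes had overlapping groups. Hoxa6, detected on 2 arrays of each group, gave a difference of -0.12.

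**Figure D2:**
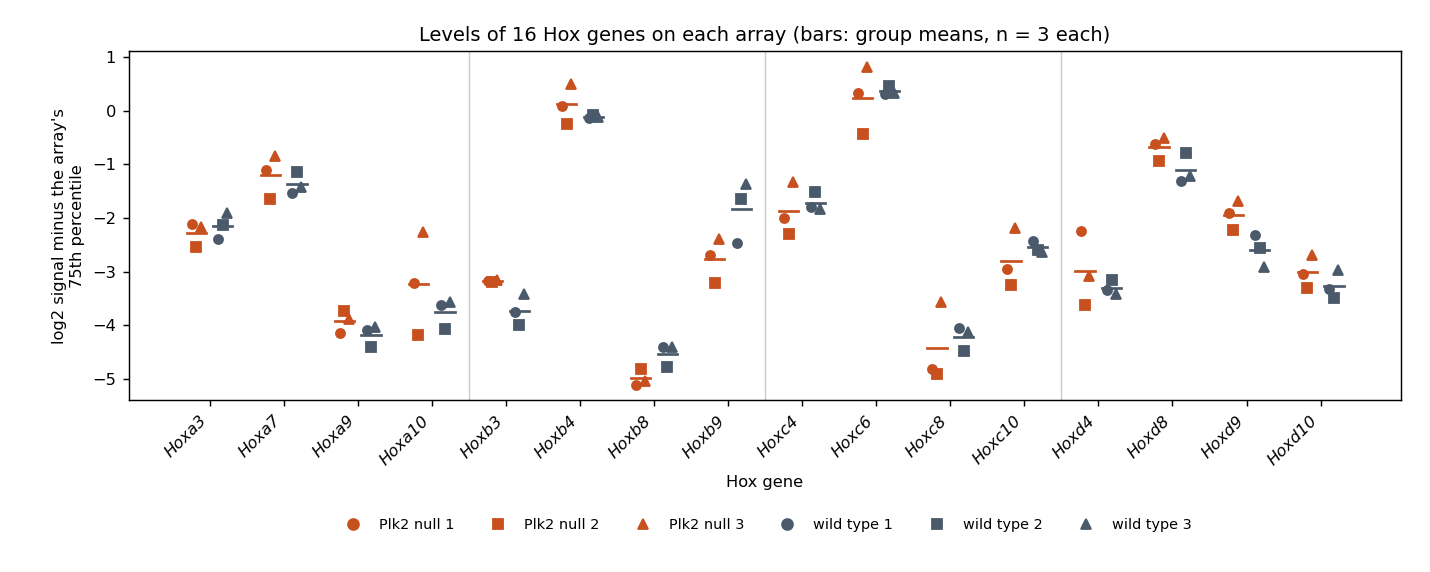
Levels (log2 signal minus the array's 75th percentile) of 16 Hox genes, up to 4 per cluster with the smallest p-values, on each Plk2 null array (left, orange) and wild-type array (right, grey); bars are group means of 3 samples. Null sample 3 (orange triangles) is often the highest and null sample 2 (orange squares) the lowest of the null samples, while the groups overlap for all but Hoxb3, Hoxb8 and Hoxd9.

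The intervals show what size of difference these arrays leave possible. In the fit used here the 95% interval of 17 of 23 genes lay within 1 log2 unit of 0, with a doubling or halving outside it. The narrowest interval, that of Hoxb8, was 0.82 wide and the widest, that of Hoxa10, 2.22. Hoxb8 was well above background on only 1 null and 2 wild-type arrays. With a trended, robust fit its SE was 0.33 rather than 0.17, and that of Hoxb3 0.25 rather than 0.18. The SE moved less for Hoxd9 (0.24 rather than 0.22) and Hoxb9 (0.34 in both). Intervals were not recounted with that fit. Lower bounds reached -1.75, for Hoxb9, and upper bounds 1.64, for Hoxa10. A p that misses the threshold does not show that a gene was equal in both groups.

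**Figure D3:**
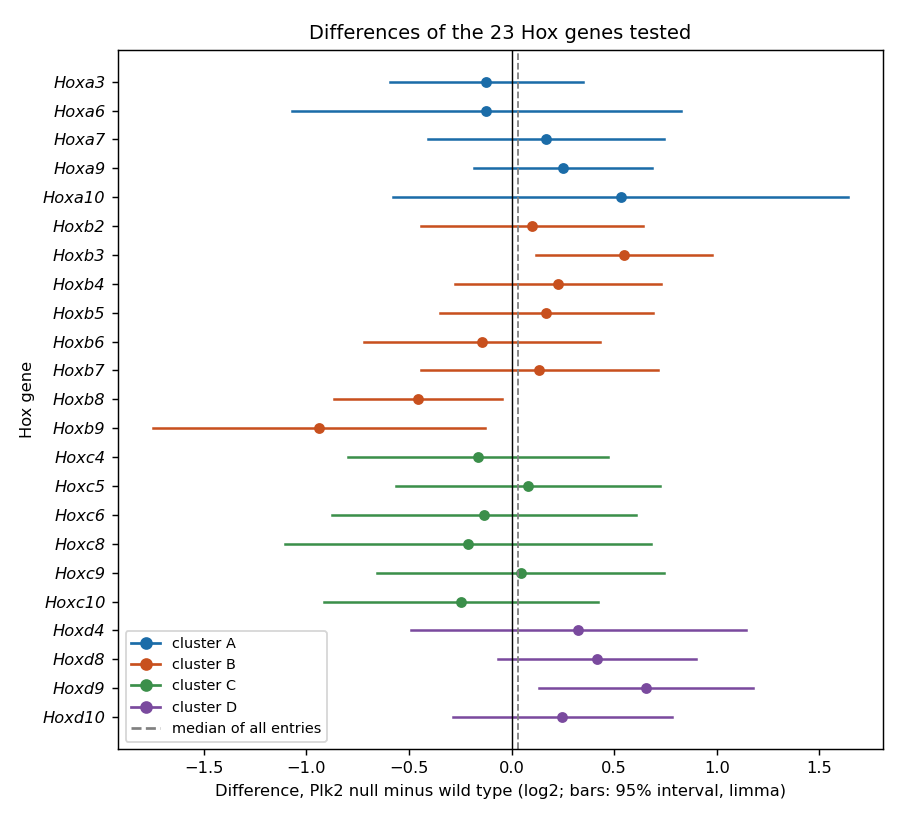
Differences of Plk2 null minus wild type (log2) with 95% intervals from limma for the 23 tested Hox genes, in cluster and paralogue order; the dashed line is the median of all entries, 0.03. The intervals of Hoxb3, Hoxb8, Hoxb9 and Hoxd9 exclude 0 before adjustment, and the 4 genes of cluster D all lie to the right of 0.

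The null samples kept a similar order from one Hox gene to the next. Null sample 3 was the highest of the 3 null samples for 18 of 23 genes, or 78.3%, against 40.3% of all entries. Null sample 2 was the lowest of the null samples for 18 of 23, or 78.3%, against 30.9% of all entries. Among wild-type samples no array stood out, each being the highest for 7 or 8 genes. The median SD of a Hox gene was 0.41 among null and 0.21 among wild-type samples, against 0.26 and 0.19 over all entries. With the arrays scaled on spike-in controls, null sample 3 was highest for 8 of 23 genes, against 7.96% of all entries. Null sample 2 was then lowest for 19, against 21.9% of all entries. This order was noticed in the data and was not tested.

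The sign of many differences moved with single arrays. Without null sample 2 only 3 of 23 differences were negative and the median was 0.20, without null sample 3 there were 14 negative and the median was -0.09, and no Hox gene was called in either case. Hoxb3 and Hoxd9 stayed positive, and Hoxb8 and Hoxb9 negative, whichever array was left out.

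Other gene lists moved between the same samples. The median of the Hox genes, as the level minus the wild-type mean, was 0.02, -0.30 and 0.49 in null samples 1, 2 and 3, against -0.03, 0.04 and -0.01 in wild-type samples 1, 2 and 3. In the same order the endothelial median was -0.24, -0.79 and 0.03 in null samples, against -0.25, 0.17 and 0.10 in wild-type samples. The fibroblast median was -0.46, -0.67 and -0.30, against 0.12, -0.14 and -0.15, and the mitosis median 1.52, 3.18 and 1.59, against 0.39, -0.30 and -0.14. Null sample 2, the lowest for Hox genes, was thus also the lowest null sample for endothelial and fibroblast markers and the highest for mitosis genes. The luminal epithelial median was -0.04, -0.14 and 0.23 in null samples, against -0.01, -0.10 and 0.13 in wild-type samples. Null sample 2 was again the lowest null sample, as for the lymphocyte, pericyte, myeloid, Schwann cell, adipocyte, skeletal muscle and hormone-sensing lists. It was the highest for the basal epithelial (0.28, 0.59 and 0.04) and luminal progenitor lists. The hormone-sensing luminal median was -1.02, -1.48 and -0.22 in null samples, against 0.06, 0.03 and -0.05 in wild-type samples. Of its 9 genes 8 had negative differences and 1, Pgr, was called (limma, adjusted p = 0.0431). Of the 18 lymphocyte markers that passed the filter, 18 had negative differences and 1, Cd8b1, was called, against 0.565% of all entries. Cd8b1, Cd8a and Cd27 were each well above background on 1 null and 3 wild-type arrays, so they passed the filter through the group where they are high. The list had summed log2 levels of 2.81 to 3.81 in null samples, against 4.86 to 5.63 in wild-type samples. Summed levels were 10.6 to 11.1 in null samples, against 11.2 to 11.4 in wild-type samples, for the 17 fibroblast markers, of which 17 had negative differences and 0 were called. For the 12 endothelial markers they were 6.66 to 7.53, against 7.24 to 7.70, and for the 13 mitosis genes 5.44 to 7.08, against 3.65 to 4.33. Of these, 12 endothelial differences were negative and 13 mitosis differences positive, with 0 called in either list, against 0.565% of all entries. At an unadjusted limma p under 0.05 there were 17 of 18 lymphocyte, 9 of 17 fibroblast, 0 of 12 endothelial and 13 of 13 mitosis genes. The share of all entries was 23%. The part of these lists in the Hox values was not tested.

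**Figure D4:**
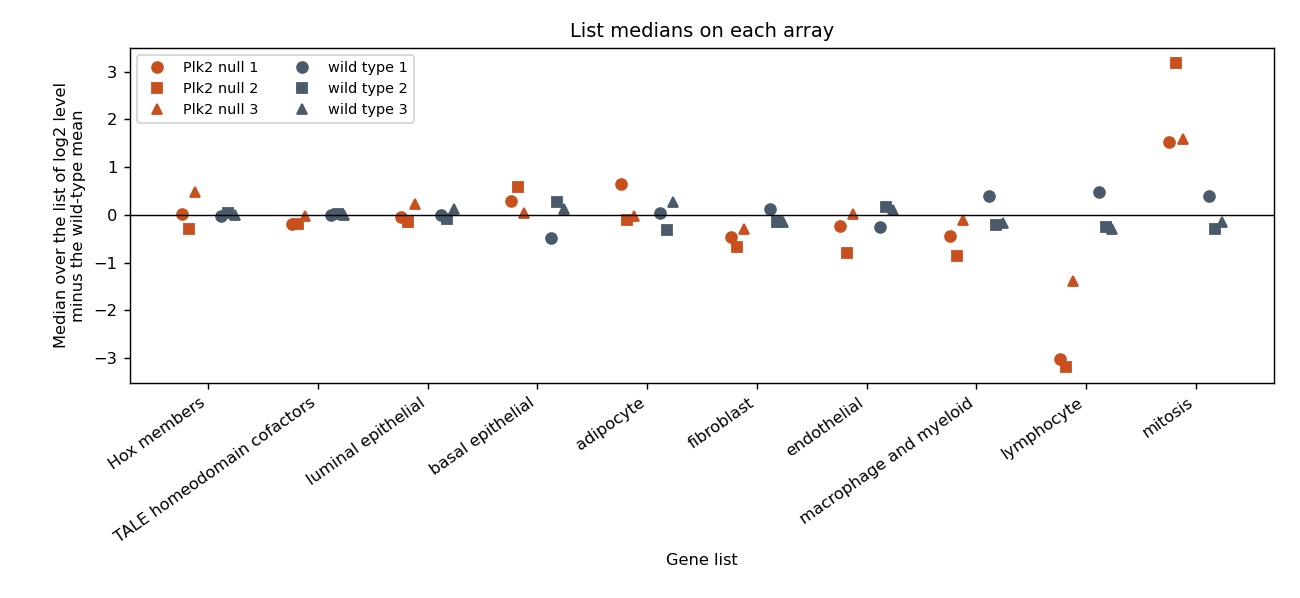
Median over each gene list of the log2 level minus the wild-type mean, for each Plk2 null array (left, orange) and wild-type array (right, grey). The Hox median runs from -0.30 in null sample 2 to 0.49 in null sample 3 with the wild-type arrays near 0, and the lymphocyte and mitosis lists show wider shifts.

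The partners of Hox proteins were nearly all present, and none passed the test. Of 9 TALE cofactor genes 8 were tested and 0 called (limma, adjusted p under 0.05), against 0.565% of all entries. Their differences had a median of -0.06, with 4 positive and 4 negative. At an unadjusted p under 0.05 there were 0 of 8, against 23% of all entries. Pbx4 stayed below the detection mark on all 6 arrays. Pknox2 differed by -0.46 (SE 0.19; limma adjusted p = 0.219), Meis2 by -0.38 (SE 0.17; adjusted p = 0.248) and Pknox1 by -0.33 (SE 0.17; adjusted p = 0.296).

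Among the chromatin genes that hold Hox clusters off or on, 0 were called, against 0.565% of all entries. The 15 tested of 17 Polycomb genes had a median of -0.02, and 3 of 15 (20%) had an unadjusted p under 0.05, near the 23% of all entries. They were Phc3, at -0.73 (SE 0.18; limma adjusted p = 0.0977), the PRC1 subunit Bmi1, at 0.55 (SE 0.17; adjusted p = 0.135), and the PRC2 subunit Eed, at 0.36 (SE 0.13; adjusted p = 0.166). The 9 tested Trithorax-group and demethylase genes had a median of 0.07, and 3 of 9 (33.3%) had an unadjusted p under 0.05. Dpy30 and Ash2l, subunits of the complexes that methylate lysine 4 of histone H3, had positive differences of 0.86 (SE 0.16; limma adjusted p = 0.0675) and 0.65 (SE 0.18; adjusted p = 0.110). The demethylase gene Kdm6b gave -0.51 (SE 0.17; adjusted p = 0.155). With normexp correction Dpy30 (limma adjusted p = 0.0275), Ash2l (0.0421) and Phc3 (0.0470) passed. Dpy30 also did with a trended, robust fit (0.0306) and with the deposited table's values (0.0434). These settings called more of all entries too. Normexp called 718 higher and 514 lower, against 56 and 83 in the fit used here. The trended, robust fit called 459 and 388, and the deposited values 362 and 371.

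Upstream of the clusters, the Cdx genes, which drive trunk Hox genes in the embryo, were barely seen. Cdx1 and Cdx2 were detected on no array and Cdx4 on 1. Of the 6 tested genes of the Cdx and retinoic acid list 0 were called, against 0.565% of all entries. Differences were negative for 5 of the 6, and the median was -0.27. At an unadjusted p under 0.05 there were 3 of 6 (50%), against 23% of all entries. Cyp26b1, which breaks down retinoic acid, had a difference of -0.98 (SE 0.26; limma adjusted p = 0.107). The receptor genes Rarb and Rara had -1.03 (SE 0.35; limma adjusted p = 0.157) and -0.42 (SE 0.17; adjusted p = 0.196).

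Genes that border the clusters and the noncoding RNAs within them were measured in part. Of the bordering genes 9 of 12 were tested, with a median of 0.06 and 0 called, against 0.565% of all entries. At an unadjusted p under 0.05 there were 3 of 9 (33.3%), against 23% of all entries. Skap1, an adaptor of T cells beside cluster B, had the widest difference, at -2.98 (SE 0.66; limma adjusted p = 0.0860), in samples where lymphocyte markers had a median of -2.57. It passed in 4 alternatives, among them without null sample 3 (-3.77, limma adjusted p = 0.00986), where 237 entries were called higher and 464 lower. Each of the 4 called more of all entries than the fit used here. Mtx2, beside Hoxd1, gave 0.67 (SE 0.17, limma adjusted p = 0.0971). It passed with normexp correction (0.0421), where 718 entries were called higher and 514 lower. Ttll6, beside Hoxb13, gave -0.79 (SE 0.32; adjusted p = 0.207), with the Ttll6 probe well above background on 1 null and 2 wild-type arrays. Evx1 and Evx2, homeobox genes at the tail ends of clusters A and D, were detected on no array. Of 10 noncoding RNAs 2 were matched to probes. Hoxa11os was detected on no array, and Hoxd3os1 differed by -0.41 (SE 0.28; limma adjusted p = 0.421).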

How the data were processed

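RNA of 6 samples was measured on 6 arrays, 3 Plk2 null and 3 wild type. Trizol extraction and Cy3 labelling were used, per the labels' protocols. Agilent Feature Extraction 11.0.1.1 read the images, per the file headers, and its processed signal of a spot is a linear intensity, already corrected for background and not normalized between arrays. The authors also deposited a table with normalized intensity values, a p-value with no adjustment, a ratio with wild type on top, and a score that is the fold with a sign. How they made it is not given in the sources used.

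From every log2 signal the array's own 75th percentile, taken across 59305 gene spots, was subtracted. Control spots and 1119 outlier-marked gene spots were left out, none was saturated, and spots of a probe were averaged. Probes were named by accession through a RefSeq table (26582 of 55681 probes). Those well above background on at least 3 of 6 arrays were kept, with the brightest probe per gene. This left 24613 entries, 14418 with a symbol.

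The test was limma (version 3.58.1, lmFit then eBayes, R 4.3.3) with Benjamini-Hochberg adjustment over all entries, at 0.05. The steps were tested on data simulated with independent noise. Recovery was required there only for planted changes larger than any Hox difference here. The text names the 4 tested members of each cluster with the smallest p and up to 3 genes of each related list, and accounts for all members; Hoxa4, Hoxd3, Hoxc9 and the single-array genes were added after their values were seen. Members and lists were chosen with earlier results of these data known. Same-numbered samples share a slide column. The correlation of their deviations from group means was -0.12, 0.04 and -0.02, and they were not treated as pairs. With 3 samples a group these values cannot decide whether the samples are paired. Alternatives were other background corrections, scalings, filters, probe averages and moderation, the replicate block, each array left out and the deposited values.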

Additional observations from a re-analysis of the deposited data

How the results depend on the processing

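No Hox gene was called in any of 16 alternatives, and the smallest adjusted p of a Hox gene ran from 0.0764 (spike-in scaling, Hoxd9) to 0.308 (no filter). The 16 Hox genes with values per sample gave 253 differences over the alternatives, of which 240 kept their sign. The cause of the changes below was not tested, apart from scaling: spike-in controls moved the median of all entries from 0.03 to 0.32. With spike-in scaling Hoxa3 (0.17), Hoxc4 (0.13), Hoxc6 (0.16), Hoxc8 (0.080) and Hoxc10 (0.044) turned positive, 2 Hox differences were negative, 8 of 23 genes had no overlap (34.2% of all entries), the Hox median was 0.39 and null sample 3 was highest for 8. Hoxa9 turned to -0.021 with normexp and Hoxc8 to 0.046 with the deposited values. With 1 array left out at a time, differences that changed sign ran from -0.25 to 0.012 for Hoxa3, from -0.43 to 0.045 for Hoxc4, from -0.42 to 0.20 for Hoxc6 and from -0.65 to 0.026 for Hoxc8, each positive only without null sample 2. They ran from -0.0088 (without null sample 3) to 0.40 for Hoxa7 and from -0.044 (without null sample 1) to 0.65 for Hoxd4. Hox genes at an unadjusted p under 0.05 numbered 1 with normexp (24.1% of all entries), 2 with a trended, robust fit (25.0%) and 1 with the deposited values (24.5%), and those without an overlap 0 with normexp (29.1%) and 0 with the deposited values (30.4%). Cluster medians changed sign to -0.021 (normexp), -0.12 (no filter) and -0.0088 (without null sample 3) for A, -0.023 (no filter) and -0.084 (without null sample 3) for B, 0.14 (spike-in), 0.0097 (deposited values) and 0.11 (without null sample 2) for C, and -0.19 (no filter) for D. Without the filter all 38 genes entered, 21 of them negative, and null sample 2 was lowest for 29, against 47.0% of all entries.

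Entries called higher and lower, 56 and 83, were 718 and 514 with normexp, 179 and 166 with median centring, 262 and 131 with spike-in scaling, 5 and 26 without the filter, 204 and 175 with all 6 arrays required, 459 and 388 with a trended, robust fit and 362 and 371 with the deposited values. The replicate block left 2 and 6, with limma adjusted p of 0.242 for Hoxb3 and 0.254 for Hoxd9. The deviations of null sample 1 from its group mean correlated most with those of wild-type sample 2 (0.21). With 3 samples a group, such correlations cannot show whether same-numbered samples share an effect. With 1 array left out at a time, entries called higher ran from 1 to 237 and lower from 6 to 464, negative Hox differences from 3 to 14, Hox genes at an unadjusted p under 0.05 from 1 to 5 (14.6% to 25.2% of all entries), those without an overlap from 4 to 9 (36.7% to 46.5%), and the Hox median from -0.09 to 0.20. The precision is limited by 3 arrays a group, and 15 of the 38 genes were too dim to test.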
